A study of Mus musculus with 15 samples.

Results

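The complement and acute phase genes described here are C3, C4b, Cfb, Hc, Serping1, Lcn2, Saa3, Serpina3n and Pigr, 9 protein-coding genes taken by name from the 54838 genes of the mouse tables. Their transcripts were measured by RNA sequencing in 15 libraries, 3 in each of 5 groups. The mammary carcinoma line 4T1 was sequenced from culture (in vitro) and from BALB/c lungs, where the cells had grown for 7 days after tail vein injection (in vivo). Sorted lung epithelial cells, titled by the surface protein EpCAM, came from mice that had received 800000 4T1 cells of a labelling kind 7 days before. One group came from distal lung and another from the metastatic niche, and a further niche group carries the label shSox9, which names a hairpin RNA against the transcription factor gene Sox9. All 3 epithelial groups therefore came from lungs of injected mice, and the labels list no epithelium from an uninjected mouse. Each epithelial replicate is given as a pool of 5 lungs. For 4T1 no label says whether replicates were separate cultures or mice, and p-values there cover only the spread between libraries, which may be technical. The sources used here do not say which cells received the hairpin, and ages are not given in them.

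Complement is a cascade of plasma and tissue proteins that tags surfaces and calls in leukocytes. C4b and C1 act in its classical arm, Cfb in its alternative arm, both arms meet at C3, and Hc (complement C5) opens the terminal, pore-forming steps. Serping1 (C1 inhibitor) restrains the start of the classical arm. Acute phase proteins are secreted in inflammation, mainly by liver but also by lung cells. Among them Lcn2 binds bacterial iron carriers, Saa3 is a serum amyloid A and Serpina3n inhibits serine proteases. Pigr, an epithelial receptor, carries IgA across epithelia into the airway.

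Among epithelial libraries, 5 of the 9 genes were higher in the niche than in distal lung (C3, Cfb, Serping1, Saa3 and Serpina3n), 3 were lower (Hc, Lcn2 and Pigr), and C4b did not pass the test. Of all 17640 genes tested there, 28.5% were called higher and 25.8% lower, so calls were common in this comparison. The median log2 fold change was 0.66 over the 9 genes and 0.02 over all genes. In niche libraries labelled shSox9, C3, Cfb and Saa3 were lower and Hc higher than in the niche, against 10.8% of all genes called lower and 9.68% higher (medians -0.13 and 0.02). In 4T1 cells, 6 of the 9 genes had enough counts to be tested and all 6 were higher in vivo. Of these, C4b, Cfb, Serping1, Lcn2 and Saa3 averaged 0.0519 to 0.382 CPM in culture and entered the test through the in vivo libraries. A lower call was hardly possible for them. Of 14022 genes tested in 4T1, 27% were called higher and 24% lower. A call means an adjusted p below 0.05 in edgeR's quasi-likelihood test, adjusted by Benjamini-Hochberg over every gene tested.

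**Figure D1:**
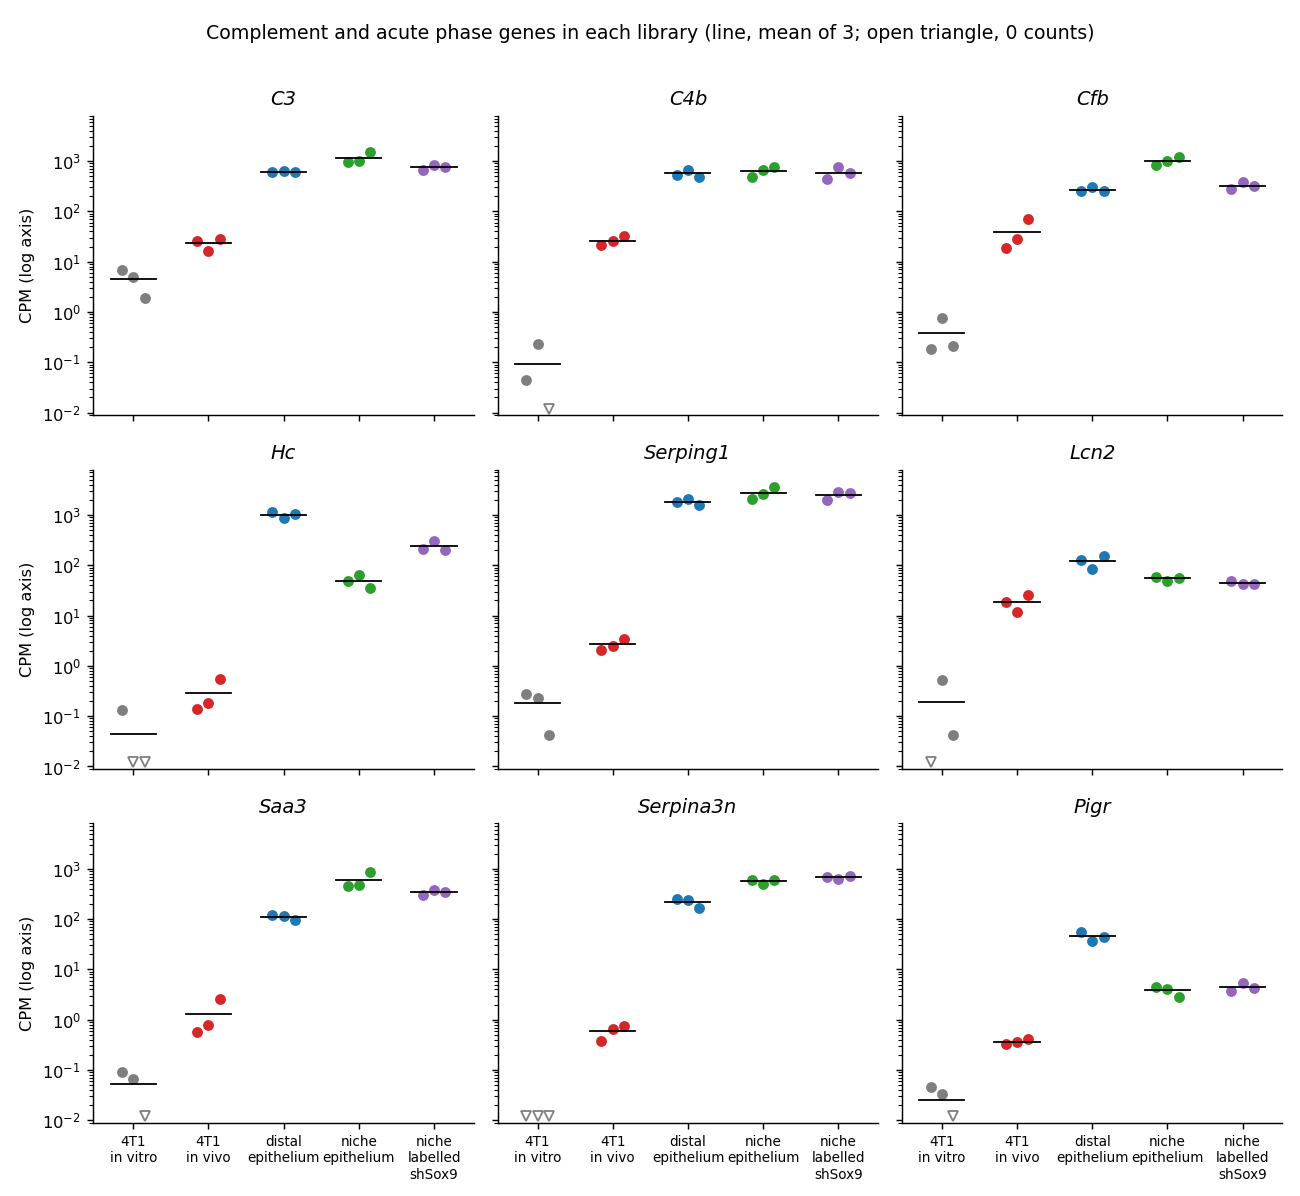
CPM (TMM-scaled, log axis) of the 9 genes in each of 15 libraries, grouped by cell source; points are libraries, lines are means of 3, and open triangles at the foot are libraries with 0 counts. Hc and Pigr were highest in distal epithelium, Cfb in niche epithelium, and every gene was lower in 4T1 cells in vivo than in any epithelial group.

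Libraries held 15907316 to 30421705 counts, and no library of a group repeated another. Levels below are CPM, the share of a library's counts, with TMM scaling over all 15 libraries, in order of replicate. Sox9 stood at 5.63, 6.41 and 6.83 CPM in distal epithelium, at 61.6, 57.1 and 32.8 in the niche and at 84.4, 60.1 and 36.9 under the label shSox9. It was not lower under that label (log2 fold change 0.26, SE 0.27, edgeR adjusted p = 0.55). 4T1 cells in vivo held Sox9 at 312.6, 360.0 and 261.8 CPM, and niche libraries also held other transcripts of 4T1 cells, as given below. The part of 4T1 RNA in these Sox9 values was not tested, so they do not give the level in epithelial cells. The name shSox9 is used below as a label and nothing more. The epithelial libraries did not hold epithelial transcripts alone. Of the fibroblast markers, 9 of 9 reached at least 1 CPM in each epithelial group, with Col1a1 at a mean of 1343 CPM in distal epithelium, 6527 in the niche and 6345 under the label, while Epcam itself had means of 103.6 and 56.0 CPM in distal and niche epithelium. Summed fibroblast markers ran from 4072 to 4726 CPM in distal epithelium, 12596 to 14426 in the niche and, under the label, 10568 to 16972. Summed markers of alveolar type 2 (AT2) cells, which make surfactant, ran from 236289 to 316307, from 9520 to 12001 and from 32622 to 59392 in the same order. Summed macrophage markers ran from 312.9 to 470.6, from 2738 to 4202 and from 166.5 to 827.4. In such bulk samples fewer cells of a type and less RNA per cell cannot be told apart.

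**Figure D2:**
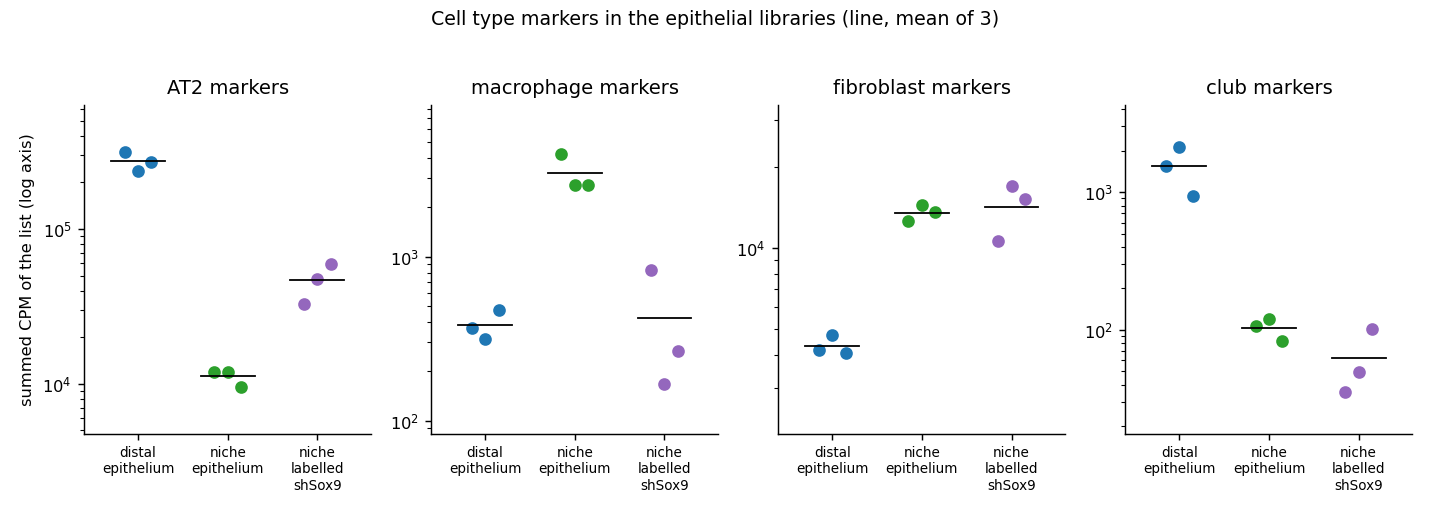
Summed CPM (log axis) of 4 lists of cell type markers in the 9 epithelial libraries; points are libraries and lines are means of 3. AT2 and club markers were highest in distal epithelium, macrophage markers in the niche, and fibroblast markers were higher in both niche groups than in distal epithelium.

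The genes lie on 5 chromosomes (GENCODE M21 on GRCm38, whole gene spans). C3 (ENSMUSG00000024164) is at chr17:57203970-57228136, C4b (ENSMUSG00000073418) at chr17:34728380-34743882 and Cfb (ENSMUSG00000090231) at chr17:34856374-34862518, all on the minus strand. Hc (ENSMUSG00000026874) is at chr2:34983331-35061438, Serping1 (ENSMUSG00000023224) at chr2:84765387-84775444, Lcn2 (ENSMUSG00000026822) at chr2:32384633-32388252 and Saa3 (ENSMUSG00000040026) at chr7:46711998-46715700, also on the minus strand. Serpina3n (ENSMUSG00000021091) is at chr12:104406729-104414329 and Pigr (ENSMUSG00000026417) at chr1:130826684-130852249, on the plus strand. Some of them have near-identical relatives, and the deposited counts were split between genes where reads were shared. C4b had a count that was not whole in 14 of 15 libraries, Serpina3n in 12, Saa3 in 8, Hc in 7 and Cfb in 1, whereas C3, Serping1, Lcn2 and Pigr had whole counts throughout. The C4b relative C4a held 3.94% to 4.92% of the C4b counts in every epithelial library, and Serpina3g had 23.1% to 111% of the Serpina3n counts. Values of C4b, Saa3 and Serpina3n are uncertain to the extent that reads were split. Hc is overlapped on the opposite strand by the antisense gene Gm13449, which held 0.353% to 0.940% of the Hc counts, and as no strand setting was found in the sources used here, reads of the pair cannot be told apart.

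The bases before the start are shown for 4 of the genes that moved between epithelial groups, since C3 and Saa3 moved together and Hc moved the other way. They come from RefSeq (GRCm38.p6, a C57BL/6J reference, while the hosts were BALB/c), which matched 6 of the 9 genes by symbol: C3, Hc, Lcn2, Saa3, Serpina3n and Pigr. Capitals mark matches on either strand to TTNNGNAA, a form of the motif of C/EBP factors, which drive acute phase genes. The windows are chr17:57228137-57228386 (minus) for C3, chr7:46715701-46715926 (minus) for Saa3, chr12:104406458-104406707 (plus) for Serpina3n and chr2:35061439-35061662 (minus) for Hc, each read 5′ to 3′ towards the gene, with bases inside the annotated gene left out.
C3: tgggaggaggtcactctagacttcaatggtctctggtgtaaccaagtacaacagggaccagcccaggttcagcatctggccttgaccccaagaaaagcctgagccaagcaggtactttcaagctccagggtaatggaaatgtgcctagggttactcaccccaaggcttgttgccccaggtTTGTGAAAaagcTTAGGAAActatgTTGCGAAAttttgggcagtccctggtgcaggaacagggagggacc
Saa3: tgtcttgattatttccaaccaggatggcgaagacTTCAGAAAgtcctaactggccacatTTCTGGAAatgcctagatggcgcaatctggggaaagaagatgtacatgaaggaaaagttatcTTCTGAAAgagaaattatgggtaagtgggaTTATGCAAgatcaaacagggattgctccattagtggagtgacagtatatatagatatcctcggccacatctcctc
Serpina3n: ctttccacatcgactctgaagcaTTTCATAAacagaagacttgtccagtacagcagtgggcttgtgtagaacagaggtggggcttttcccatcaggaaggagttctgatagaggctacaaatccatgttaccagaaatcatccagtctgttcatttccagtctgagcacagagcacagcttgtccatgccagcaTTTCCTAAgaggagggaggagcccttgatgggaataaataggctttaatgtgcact
Hc: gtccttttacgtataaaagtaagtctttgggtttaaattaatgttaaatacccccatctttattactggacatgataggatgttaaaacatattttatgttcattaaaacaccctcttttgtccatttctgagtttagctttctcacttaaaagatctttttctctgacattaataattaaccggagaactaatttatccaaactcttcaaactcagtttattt
Over the 250 bases before the RefSeq start, C3 held 3 matches that begin 70, 58 and 45 bases before it, and Saa3 held 4, beginning 216, 191, 129 and 99 bases before it. Serpina3n held 2, at 227 and 56 bases, Lcn2 held 1, at 216 bases, and Hc and Pigr held 0. For Serpina3n the RefSeq start lies 21 bases before the annotated start of the gene. For Lcn2 the RefSeq start lies well inside the annotated gene, and all 250 bases searched are within the gene span. The Lcn2 match, and its lack of the other motifs below, therefore do not describe bases before the annotated start. Of 27025 promoters of the same length, 36.9% held at least 1 match. The NF-kB motif searched is in 7.01% of promoters, the STAT motif TTCNNNGAA is in 7.18%, and neither string is in these 6 windows. A match is a description of letters and not a binding site.

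C3, where the arms of complement meet, was high in every epithelial group. It stood at 609.4, 628.0 and 612.6 CPM in distal epithelium, at 938.9, 987.3 and 1481 in the niche and at 668.7, 844.8 and 755.1 under the label shSox9. The 3 groups did not overlap, with the niche highest and distal lung lowest, and niche replicate 3 stood well above its fellows. C3 was 1.93-fold higher in the niche than in distal epithelium (log2 fold change 0.95, SE 0.17, edgeR adjusted p = 0.00067). Under the label it was lower than in the niche by -0.58 (log2, SE 0.17, edgeR adjusted p = 0.032). That call was lost without niche replicate 3 (log2 -0.34, edgeR adjusted p = 0.093), without replicate 1 of the labelled group (-0.50, adjusted p = 0.071), without its replicate 3 (-0.59, adjusted p = 0.081) and with only the 6 libraries compared (-0.58, adjusted p = 0.063).

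Cfb, the protease of the alternative arm, had the largest rise in the niche of the complement genes among the 9. It stood at 253.2, 306.3 and 253.9 CPM in distal epithelium, at 850.9, 1000 and 1203 in the niche and at 276.3, 378.4 and 316.7 under the label. Each niche library exceeded every distal and every labelled library, and the distal and labelled ranges overlapped. Cfb rose 3.94-fold from distal lung to niche (log2 fold change 1.98, SE 0.16, edgeR adjusted p = 2.5e-06) and was 3.14-fold lower under the label than in the niche (log2 -1.65, SE 0.16, adjusted p = 0.00013). Both comparisons use the same niche libraries. Macrophage markers moved with Cfb, and with C3 and Saa3: 11 of 11 were higher in the niche than in distal lung and 10 of 11 lower under the label than in the niche, and their part in these results was not tested.

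C4b, the classical arm's partner of C2, did not change by the test. It stood at 539.4, 677.7 and 488.0 CPM in distal epithelium, 485.5, 676.7 and 772.4 in the niche and 438.8, 751.6 and 574.6 under the label, with all 3 ranges overlapping. The log2 fold change from distal lung to niche was 0.25 (SE 0.22, edgeR adjusted p = 0.36). On deposited TPM, which scale to a fixed total, it was 0.73 with an adjusted p of 0.0085 in limma. On that scale the median of all genes also shifted, by 0.477, and 9212 of 17640 genes were called higher. Between the labelled group and the niche it was -0.13 (SE 0.22, edgeR adjusted p = 0.73), and its sign turned without niche replicate 3 (0.03) or without replicate 1 of the labelled group (0.05).

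Serping1, the inhibitor of C1, was the most abundant of the 9 genes in each epithelial group, both in CPM and in TPM, which is scaled for transcript length. It stood at 1810, 2095 and 1590 CPM in distal epithelium, 2100, 2617 and 3570 in the niche and 2002, 2794 and 2769 under the label. Every niche library was above every distal one, by a narrow margin. It was 1.58-fold higher in the niche (log2 fold change 0.66, SE 0.21, edgeR adjusted p = 0.019), a call that was lost without distal replicate 1 (0.65, adjusted p = 0.054), without distal replicate 3 (0.57, adjusted p = 0.07) and without niche replicate 3 (0.43, adjusted p = 0.083). Against the niche the labelled group differed by -0.13 (SE 0.21, edgeR adjusted p = 0.71), with the opposite sign without niche replicate 3 (0.10) or replicate 1 of the labelled group (0.02).

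Hc, which encodes complement C5, showed the largest difference of the 9 genes between epithelial groups. It stood at 1123, 852.9 and 1032 CPM in distal epithelium, at 48.7, 63.7 and 35.9 in the niche and at 209.3, 300.4 and 203.8 under the label. The groups did not overlap, with the labelled group between the others. Hc was 19.3-fold lower in the niche than in distal lung (log2 fold change -4.27, SE 0.24, edgeR adjusted p = 1.7e-07). It was 4.82-fold higher under the label than in the niche (log2 2.27, SE 0.22, adjusted p = 0.00012), and still 4.01-fold below distal lung (log2 -2.00, SE 0.22, adjusted p = 2.8e-05). AT2 markers moved in the same order and by a like amount, with 8 of 8 lower in the niche (median log2 fold change -4.37) and 8 of 8 higher under the label than in the niche (median 1.91). Sftpc, the AT2 surfactant protein C gene, took 16.7% to 20.4% of all counts in distal libraries, 0.805% to 1.04% in niche libraries and 2.89% to 5.21% in labelled ones. The antisense gene Gm13449 differed by -4.40 (SE 0.34) and 2.34 (SE 0.35) in the same comparisons.

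**Figure D3:**
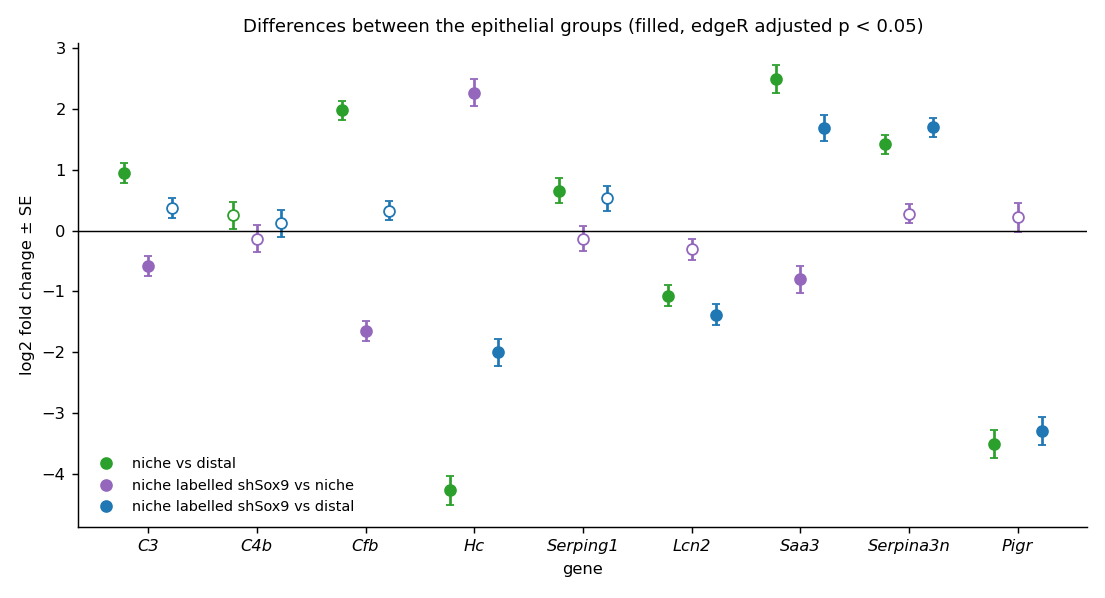
Log2 fold change with its standard error for the 9 genes in 3 comparisons of epithelial groups, which share libraries; filled points passed edgeR's adjusted p of 0.05. Hc and Pigr had the largest falls from distal lung to niche (-4.27 and -3.51), Saa3 and Cfb the largest rises (2.50 and 1.98), and Hc and Cfb differed most between the labelled group and the niche (2.27 and -1.65).

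Saa3, a serum amyloid A, had the largest rise. It stood at 120.2, 114.4 and 96.9 CPM in distal epithelium, 449.4, 481.0 and 855.4 in the niche and 298.3, 372.5 and 349.9 under the label. No group overlapped another, and the labelled group again lay between the others. Saa3 was 5.66-fold higher in the niche than in distal lung (log2 fold change 2.50, SE 0.23, edgeR adjusted p = 5.6e-06) and 1.75-fold lower under the label than in the niche (log2 -0.80, SE 0.22, adjusted p = 0.023). The second call was lost without replicate 1 of the labelled group (-0.71, edgeR adjusted p = 0.05) or without its replicate 3 (-0.83, adjusted p = 0.062).

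Serpina3n, a secreted protease inhibitor, rose in the niche and stayed high under the label. It stood at 256.9, 240.1 and 165.7 CPM in distal epithelium, 600.2, 489.4 and 596.3 in the niche and 698.3, 622.6 and 727.5 under the label. Every labelled library was above every niche library, but the difference did not pass the test (log2 fold change 0.28, SE 0.16, edgeR adjusted p = 0.24). From distal lung to niche Serpina3n rose 2.67-fold (log2 1.42, SE 0.16, adjusted p = 2.8e-05). Its chromosome 12 neighbour Serpina3g, from the same inhibitor family, rose 8.86-fold in the niche (log2 3.15, SE 0.12, edgeR adjusted p = 3.5e-08) and was 3.51-fold lower under the label (log2 -1.81, SE 0.12, adjusted p = 2.3e-05). Of 9 fibroblast markers 5 were called higher in the niche (Col1a1, Col1a2, Col3a1, Pdgfra and Pdgfrb) and 0 lower, with a median log2 fold change of 0.50. The collagen gene Col14a1, Dcn and Lum had lower means in the niche, without a call (Col14a1 75.0 CPM in distal epithelium and 58.9 in the niche). Col1a1 rose by 2.35 (log2, SE 0.20, edgeR adjusted p = 3.7e-06). The part of fibroblasts in the result was not tested.

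Lcn2, an antibacterial protein of neutrophils and stressed epithelia, was lower in the niche. It stood at 127.5, 85.9 and 149.9 CPM in distal epithelium, 59.5, 49.1 and 55.9 in the niche and 48.7, 42.6 and 41.7 under the label. Distal libraries were highest without overlap. Lcn2 was 2.1-fold lower in the niche than in distal lung (log2 fold change -1.07, SE 0.17, edgeR adjusted p = 0.0003), and on TPM by -0.45 (adjusted p = 0.033 in limma), a scale on which the median of all genes shifted by 0.477. All labelled libraries lay below the niche libraries, but the difference missed the threshold (-0.31, SE 0.17, edgeR adjusted p = 0.24). Neutrophil markers summed to 54.1 to 129.1 CPM in distal epithelium, 63.6 to 103.7 in the niche and, under the label, 69.0 to 129.6. Of 7 tested, 1 (Mmp8) was called higher in the niche than in distal lung and 0 lower, but their median log2 fold change was -0.71. S100a8 had means of 22.1 CPM in distal epithelium and 12.8 in the niche, and Csf3r had 27.6 and 34.0. The part of neutrophils in the result was not tested.

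Pigr, the IgA transporter, was the least abundant of the 9 genes in every epithelial group. It stood at 56.7, 37.0 and 44.5 CPM in distal epithelium, 4.53, 4.14 and 2.79 in the niche and 3.66, 5.44 and 4.31 under the label. Distal libraries were far above both niche groups, which overlapped each other. Pigr was 11.4-fold lower in the niche (log2 fold change -3.51, SE 0.23, edgeR adjusted p = 5.9e-07). In the labelled group it was 9.77-fold below distal lung (log2 -3.29, SE 0.23, edgeR adjusted p = 1.9e-06). Unlike Hc it did not differ detectably between the labelled group and the niche (0.22, SE 0.24, edgeR adjusted p = 0.56). Its list of IgA transport and mucosal defence genes had 9 of 10 members lower in the niche and 1 higher, with a median of -2.81. Igha and Jchain, which encode the IgA heavy chain and the chain that joins IgA for transport, differed by -7.66 and -6.84 on the log2 scale, both called. Of 9 lymphocyte markers tested, 4 were called lower in the niche and 1 higher (median -1.04). The part of lymphocytes in the Igha and Jchain values was not tested. Club cell markers, of airway secretory cells, were lower for 5 of 5 (median -3.62). They summed to 943.5 to 2146 CPM in distal epithelium, 82.6 to 119.2 in the niche and, under the label, 35.2 to 101.8, and their part in the result was not tested.

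Against distal lung, the labelled group had 2 of the 9 genes higher (Saa3 and Serpina3n) and 3 lower (Hc, Lcn2 and Pigr), where 21.7% of all genes were called higher and 22% lower. The count of higher genes depended on scaling: with library size alone it was 5, and C3, Cfb and Serping1 then stood 0.64, 0.60 and 0.80 higher (log2). With that scaling 6471 of all 17640 genes were called higher, and the median of all genes shifted to 0.276. C3, Cfb and Serping1 differed by 0.37, 0.33 and 0.53 (log2, SE 0.17, 0.16 and 0.21) with TMM scaling, at edgeR adjusted p of 0.1, 0.12 and 0.058. Without replicate 1 of the labelled group, Cfb (0.44, edgeR adjusted p = 0.044) and Serping1 (0.68, adjusted p = 0.017) passed the test. AT2 markers were lower than in distal lung for 8 of 8 and fibroblast markers higher for 6 of 9, while summed macrophage markers overlapped between these groups. All 3 epithelial comparisons share libraries, so their values are set side by side only.

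Per transcript length the order of the genes also changed between groups. In distal epithelium mean TPM was 1116 for Serping1, 325.6 for Hc, 235.3 for Saa3, 194.4 for C3 and 12.2 for Pigr. In the niche it was 2630 for Serping1, 1991 for Saa3, 806.5 for Cfb, 518.0 for C3, 22.5 for Hc and 1.59 for Pigr. Hc thus went from the second place to the eighth, and Saa3 from the third to the second. Under the label Serping1 (2399) and Saa3 (1135) led again, with Serpina3n (539.1) in the third place and Hc at 102.6.

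Lists of the complement system, which include C3, C4b, Cfb, Hc and Serping1, are given by role, to be read against the 28.5% of all genes called higher and 25.8% called lower in the niche, and 9.68% and 10.8% under the label. In the niche, 10 of 14 tested genes of the classical and lectin arms were higher than in distal lung and 1 lower. C1qa, C1qb and C1qc, which form the recognition unit C1q, rose by 3.50, 3.50 and 3.39 (log2, SE 0.53, 0.57 and 0.58), and were lower under the label by -2.87, -2.94 and -2.87. Cfp (properdin), which stabilises the alternative arm's enzyme, rose by 2.85 and was lower by -2.65 under the label. Of the terminal components, 2 of 4 tested were lower in the niche and 0 higher: Hc and C6, the latter by -2.65 (SE 0.19), and both were higher under the label (C6 by 1.19, SE 0.18). Among 9 tested regulators 3 were lower and 1, Serping1, higher in the niche, with Cd55, which breaks up the C3-cleaving enzymes on the cell surface, at -2.61 (SE 0.22). Complement receptors, found mainly on leukocytes, were higher in the niche for 4 of 6 tested and lower for C5ar2 (2.65 CPM in distal epithelium and 0.52 in the niche). On the log2 scale those higher were C3ar1 by 3.09, Itgax by 2.81, C5ar1 by 2.42 and Itgam by 1.37. The same 4 were lower under the label, by -2.25, -3.07, -1.73 and -1.63. Macrophage markers had medians of 3.20 and -2.80 in these comparisons, and their part was not tested. The median over all genes was 0.02 in both.

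**Figure D4:**
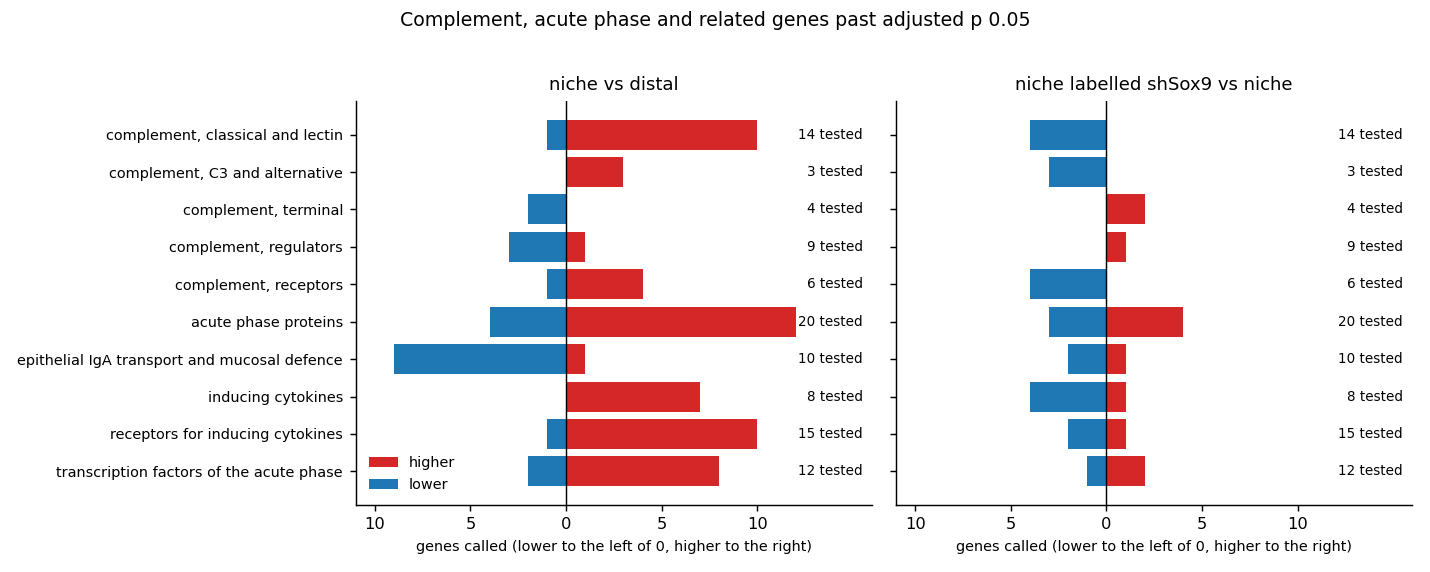
Number of genes called higher (right of 0) and lower (left of 0) in each of 10 lists, for niche against distal epithelium and for the labelled niche group against the niche; the number tested stands beside each bar. Acute phase proteins had 12 of 20 tested genes higher in the niche, and mucosal defence genes 9 of 10 lower.

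Of 20 tested acute phase proteins, 12 were higher and 4 lower in the niche than in distal lung (median 1.31), where 28.5% of all genes were called higher and 25.8% lower. Under the label against the niche 4 of the 20 were higher and 3 lower, where 9.68% of all genes were called higher and 10.8% lower. The falls from distal lung to niche included Itih4 and Lrg1, secreted glycoproteins of the acute phase, at -3.30 (SE 0.26) and -2.83 (SE 0.26). Both were higher under the label, by 1.83 and 1.92. Cytokines that induce such genes were higher in the niche for 7 of 8 tested, with Il1a at 3.09, Lif at 2.29, Osm at 2.12 and Tnf at 1.67. Under the label 4 of 8 were lower, among them Tnf by -2.65 and Osm by -1.87. Il6 alone was higher, with means of 97.5 CPM in the niche and 171.3 under the label. Their receptors were higher in the niche for 10 of 15 tested and lower for Il11ra1, and those higher include Tnfrsf1b, a receptor of TNF, at 1.67 (SE 0.10). Of 12 acute phase transcription factors 8 were higher and 2 lower. Cebpb, a C/EBP factor, rose by 0.98 (SE 0.14), and Cebpa fell by 1.63 on the log2 scale (SE 0.16). Each of these differences passed edgeR's test at an adjusted p below 0.05.

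In 4T1 cells in culture the 9 genes were scarce, and C3 alone had more than 1 CPM in all 3 libraries. C3 stood at 6.94, 4.99 and 1.93 CPM in vitro and at 25.7, 16.1 and 27.6 in vivo. The groups did not overlap, and C3 rose 5.03-fold (log2 fold change 2.33, SE 0.37, edgeR adjusted p = 0.0007). Lcn2 stood at 0, 0.525 and 0.0419 CPM in vitro and 18.3, 11.6 and 26.0 in vivo, a log2 difference of 6.39 (SE 0.60, edgeR adjusted p = 3.6e-05) that was 9.39 without in vitro replicate 2. Cfb stood at 0.180, 0.755 and 0.209 CPM in vitro and 18.9, 28.0 and 70.0 in vivo. In vivo replicate 3 stood apart from the others. The log2 fold change of Cfb was 6.55 (SE 0.63, edgeR adjusted p = 4.2e-05), with 5.84 without in vivo replicate 3 and 7.57 without in vitro replicate 2.

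C4b stood at 0.045, 0.23 and 0 CPM in vitro and 21.5, 25.2 and 31.8 in vivo. It had 8 counts over the 3 cultures and 1634 in vivo, a log2 fold change of 7.91 (SE 0.41, edgeR adjusted p = 1.1e-06) and of 9.88 without in vitro replicate 2. Its size is loosely bounded because of the low culture counts. Serping1 and Saa3 also rose, by 3.85 (SE 0.50, edgeR adjusted p = 0.00023) and by 4.49 (SE 0.86, edgeR adjusted p = 0.002), the latter 3.58 without in vivo replicate 3, but from 14 and 4 counts to 168 and 79. Hc, Serpina3n and Pigr were too scarce to test. Hc had 3 counts in vitro and 18 in vivo (ratio 7.99, 95% counting interval 2.33 to 42.4). Pigr had 2 and 23 (ratio 15.3, interval 3.79 to 134.1). Serpina3n had 0 counts in vitro and 37 in vivo, at least 16.4-fold higher when the 3 cultures together are set at a floor of 3 counts. These intervals and the floor cover counting error only. Without the filter on low counts edgeR called 8 of the 9 genes higher, where 4405 of all 26935 genes were called higher. DESeq2 also called 8, where 3877 of 18054 genes were called higher. No tested gene of the 9 was lower, and 0 had an unadjusted p below 0.05 in that direction. Apart from C3 the tested genes were near 0 in culture, so a fall could hardly have been called for them.

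Other genes that the epithelial libraries held and culture lacked were also found in the 4T1 libraries from lung. Each gene was therefore set beside a panel of 156 genes. Panel genes were at 50 CPM or more in all distal and niche libraries and at 0.5 CPM or less in culture. They were not chosen by cell type, and the fibroblast marker Col3a1 and the macrophage marker Ctss also meet these limits. In 4T1 cells in vivo the panel genes stood at medians of 0.339%, 0.386% and 0.634% of their niche mean. Lcn2 stood at 33.3%, 21.1% and 47.4% of its niche mean, and 1 of the 156 panel genes had a higher share. Pigr stood at 8.63%, 9.62% and 10.6%, C4b at 3.34%, 3.91% and 4.94%, and Cfb at 1.86%, 2.75% and 6.88%. Panel genes with a higher share numbered 10 for Pigr and 19 each for C4b and Cfb. Pigr had only 3.82 CPM in the niche, below the 50 CPM that panel genes needed. Its in vivo mean was 0.798% of its distal mean. Others of the 9 genes also missed the panel's limits. In culture C3 stood at 1.93 to 6.94 CPM, and Cfb and Lcn2 reached 0.755 and 0.525. In the niche the lowest values of Lcn2 and Hc were 49.1 and 35.9 CPM. Panel genes were chosen as near 0 in culture, so they are no like reference for a gene such as C3. C3, at 2.26%, 1.42% and 2.43%, was exceeded by 33 panel genes, and Hc, Saa3, Serpina3n and Serping1 by 68, 110, 141 and 146. For these 4 genes the share lay within or below the quartiles of the panel in each library. Whether RNA of lung cells accounts for the panel's level was not tested. Macrophage markers summed to 45.9, 63.9 and 310.6 CPM in the 3 in vivo libraries and to at most 12.7 in culture. Neutrophil markers summed to 3.96, 4.23 and 17.4 CPM in vivo, and both markers with enough counts to test, S100a8 and Csf3r, were called higher in vivo than in vitro. Of the 11 neutrophil markers 2, Elane and Mpo, were at 0 in vivo, and Elane was also at 0 in distal epithelium. Replicate 3, the highest in both, was also the highest of the 3 for each of the 9 genes, and the part of these cells was not tested.

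**Figure D5:**
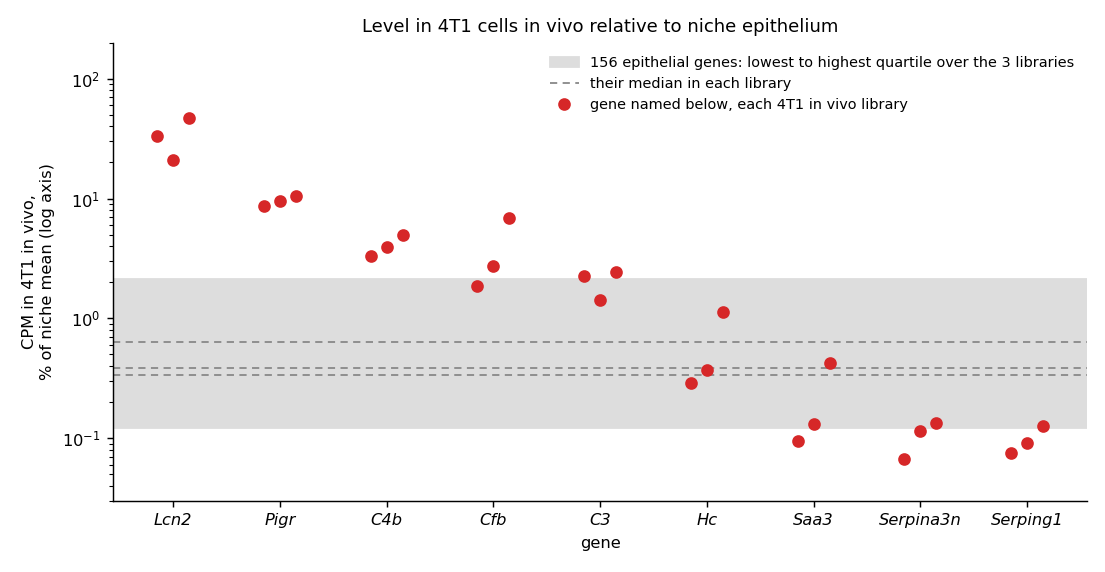
Level of the 9 genes in the 3 libraries of 4T1 cells in vivo, as a percentage of the niche mean (log axis). The grey band and dashed lines give the quartile range and medians of 156 genes, of any cell type. Distal and niche libraries hold these genes and culture lacks them. Lcn2, Pigr, C4b, Cfb and C3 exceeded the panel's upper quartile of the same library (1.13%, 1.29% and 2.12%) in all 3 libraries. Hc, Saa3, Serpina3n and Serping1 did in none. Lcn2, Pigr, Cfb, C3 and Hc did not themselves meet the limits set for panel genes.

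Against niche epithelium, all 9 genes were lower in 4T1 cells in vivo, where 36% of all 18242 genes tested were called lower and 28.9% higher. No gene of the 9 was higher by edgeR, and 0 had an unadjusted p below 0.05 in that direction. The difference was smallest for Lcn2, at -1.56 (log2, SE 0.30, edgeR adjusted p = 0.00032), and largest for Serping1, at -10.00 (SE 0.31, adjusted p = 1.6e-12). Without in vivo replicate 3 the difference grew from -4.71 to -5.45 for Cfb, from -7.40 to -8.21 for Hc and from -8.87 to -9.79 for Saa3. In the other direction, 44 genes at 20 CPM or more in all 4T1 libraries and at most 5% of that level in distal lung, a panel chosen after seeing the data, stood at 21.2%, 21.7% and 14% of their in vivo level in niche libraries. They stood at 25.6%, 19% and 13.8% under the label. The 3 genes of the stricter panel gave 19.3%, 22.3% and 13.8%, and 24.3%, 26.6% and 18.9%. An estimate took 4T1 RNA at the wider panel's median share and at its mean in vivo level. Its highest value over niche and labelled libraries was 9.81% of Lcn2, 3.62% of Cfb and 2.57% of Pigr. For each other gene the highest value was 1.53% or less. The estimate is no upper bound, since shares differ between panel genes and levels between in vivo libraries. The part of 4T1 RNA in these genes was not tested.

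The genes whose levels followed each of the 9 most closely over the 15 libraries were found by Pearson's r of log2(CPM + 1) among 12187 genes, as a description, since the 5 groups differ in cell source and in depth. Hc was closest to Lamp3 (r = 0.999), an AT2 marker, Itih4 and Cldn18. Serpina3n was closest to the collagen gene Col3a1 (0.999), Fgfr1 and Emilin1, and Serping1 to Sod3 (0.999), Colec12 and Rtl8b. C4b was closest to C1s1 (0.996), a protease of the classical arm that cleaves C4, to Socs3 and to Ccn5. C3 followed Gpm6b (0.995), Itm2c and Tmem176b, Cfb followed Plvap (0.992) and Pltp, and Saa3 followed Rftn1 (0.997), Plac8 and Col5a2. Pigr followed Sec14l3 (0.995), Tjp3 and Cbr2, and Lcn2 followed Txnip (0.986), Lyz2 and Icam1.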

How the data were processed

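RNA was sequenced as reads of 75 bases in 15 mouse libraries. The authors made 1 table per library with RSEM on GRCm38, per the submitters' processing notes, which also name DESeq2 and give no versions. The aligner, annotation release and strand setting: not given in the sources used here. Expected counts, as deposited, are estimates in which a read that fits several genes is split, so 11.8% to 14.1% of genes had values that were not whole. TPM, also deposited by the authors, is scaled for transcript length to a fixed total.

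Gene identifiers were matched to GENCODE M21 (99.79% of 54838). Expected counts were rounded and tested with edgeR 4.0.16 in R 4.3.3 (TMM, filterByExpr, quasi-likelihood F-test, Benjamini-Hochberg adjustment, threshold 0.05), in 1 fit of the 6 libraries of 4T1 cells, 1 of the 9 epithelial libraries, and 1 of all 15 for 4T1 cells in vivo against the niche. Scripts were tested on simulated data. Standard errors were computed from log2 fold changes and F statistics. The deposited RSEM files gave the only values used. Depth was 15907316 to 30421705 counts, and the floor used for a group at 0 was 3 counts over its libraries together. Alternatives were median-ratio factors, library size alone, DESeq2 1.42.0, no filter, limma 3.58.1 on log2(TPM + 1) and log2(TPM + 0.1), other sets of libraries, each library left out, and the replicate block. Titles of the niche libraries carry letters, given here as replicate numbers, and state no pairing. The numbers were taken to pair the labelled and unlabelled niche libraries only because the deviations of same-numbered libraries correlated at 0.198, 0.142 and 0.171. They were not taken to pair other groups, where at least 1 pair fell below 0.1. A pair with unlike numbers, labelled replicate 1 and distal replicate 3, reached 0.207, so the ground for pairing is weak. The main tests did not use it. Named genes are the 9, up to 4 called genes with the largest change per list and comparison if their higher group had a mean of 5 CPM or more, and the 3 genes most like each; 2 genes that this rule names are not reported here. The genes and the 20 lists (197 genes) were chosen with earlier results of these data known.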

Additional observations from a re-analysis of the deposited data

How the results depend on the processing

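Of 588 values of single genes under the alternatives, 554 kept their direction and their side of the threshold, 20 gained a call, 9 lost one and 5 changed sign. The changes of sign came from leaving out 1 library where no call was made. Between the labelled group and the niche, C4b ranged from -0.35 to 0.05 over the libraries left out (0.03 without niche replicate 3) and Serping1 from -0.29 to 0.10 (0.02 without replicate 1 of the labelled group). Between the labelled group and distal lung C4b ranged from -0.09 to 0.30. The number of the 9 genes higher in the labelled group than in distal lung was 2, but 5 with library size alone, 4 without the filter, 6 with limma on either TPM scale, 4 with only the 6 libraries compared, and 2 to 4 when each library was left out. The number lower under the label than in the niche was 3, and 1 to 3 when each library was left out. With the replicate block the paired comparison of labelled and unlabelled niche libraries kept 1 gene higher and 3 lower, and the block changed no call of the 9 genes in any comparison.

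Scaling moved the balance over all genes. Genes higher and lower numbered 3781 and 3370 between 4T1 cells in vivo and in vitro, and 4560 and 2425 with library size alone. Between niche and distal lung they were 5025 and 4554, against 7207 and 3319 with library size alone and 9212 and 2397, or 9237 and 2371, on TPM. Between the labelled group and distal lung they were 3833 and 3886, against 6471 and 2662, 8789 and 1962, and 8790 and 1901. Between the labelled group and the niche, 1707 and 1909 became 940 and 1298 without niche replicate 1. The median log2 fold change of all genes shifted to 0.296 with library size alone and to 0.477 and 0.598 on TPM for niche against distal lung. For the labelled group against distal lung it shifted to 0.276, 0.444 and 0.555 in the same order. Low counts limit the 4T1 values in culture. Protein sequences were not analysed here.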
